A study of Arabidopsis thaliana with 12 samples.

Results

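The glycine decarboxylase complex of Arabidopsis thaliana was followed through its 8 loci, which were chosen by gene identity. They are the P-protein genes GLDP1 and GLDP2, the T-protein gene GLDT, the H-protein genes GDCH1, GDCH2 and GDCH3, and the L-protein genes mLPD1 and mLPD2. They make up 8 of the 27416 transcripts quantified. RNA-seq was performed on 12 libraries in 4 groups of 3 independent biological replicates: the aerial part and the roots of wild type (WT) plants, and the same organs of plants labelled psp1, mutated in phosphoserine phosphatase. All plants were of the Columbia ecotype and grew upright on agar plates for an age not given in the sources used here, at 20 to 22 °C under a photoperiod of 16 h light, and tissue was taken as the night ended. The labels name neither the psp1 allele nor any rescue or selection of the mutant plants, and the titles of the psp1-labelled libraries carry the code HS, which the labels do not explain.

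Glycine decarboxylase is a mitochondrial complex of 4 proteins. The P-protein, a pyridoxal phosphate enzyme, takes the carboxyl group off glycine, and the remaining aminomethyl group is carried on the lipoyl arm of the H-protein to the T-protein, which passes its carbon to tetrahydrofolate and frees ammonia. The L-protein, dihydrolipoamide dehydrogenase, re-oxidises the lipoyl arm and also serves as E3 of the mitochondrial pyruvate, 2-oxoglutarate and branched-chain 2-oxoacid dehydrogenases. In photosynthetic leaf cells the complex works with serine hydroxymethyltransferase to turn photorespiratory glycine into serine, and in other cells it supplies one-carbon units. Phosphoserine phosphatase completes a separate, plastidial route to serine.

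The labels were checked first. PSP1 itself was at 73.8, 64.3 and 50.4 CPM (counts scaled to the library total) in the WT aerial libraries 1 to 3 and at 401, 304 and 243 CPM in the aerial libraries labelled psp1. The mutated gene was therefore higher, not lower, in the latter (log2 fold change 2.29 ± 0.26 SE, edgeR exact test with Benjamini-Hochberg adjustment, adjusted p = 1.6e-22). In roots PSP1 stood at 167, 158 and 141 CPM in WT and at 114, 122 and 145 CPM in psp1-labelled libraries, a difference that did not pass the 0.01 threshold (adjusted p = 0.0275). A transcript level does not show whether the enzyme is functional, so the genotype is given below as labelled. Total counts ranged from 7302386 to 9590308 in the WT libraries and from 3627193 to 5873935 in the psp1-labelled libraries, so depth separated the genotypes in both organs. The organ labels matched the marker sums: 10 leaf genes summed to 39781 to 58197 TPM (transcripts scaled by length and library sum) in aerial libraries and 517 to 888 TPM in roots. The 10 root genes summed to 2132 to 3435 TPM in roots and 176 to 210 TPM in aerial libraries. Most of that sum was 1 gene, PYK10, at 1951 to 3339 TPM in roots. In WT 7 of the 8 root genes tested were called higher in roots, where 33.6% of all genes were, and SHR was not. PRP3 and EXPA7 were too low to be tested there. In psp1-labelled plants 7 of 9 were called higher, against 25.2% of all genes, and SHR and CASP2 were not. Of 7 flower and seed genes, CRC, CRA1 and OLEO1 were at 0 in every library, and the 7 together never passed 3.52 TPM.

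In wild type, 5 of the 8 genes were abundant leaf transcripts, and a different set led in roots. Levels are compared between genes in TPM. In the WT aerial part GDCH3 had 931 ± 113 TPM (SD, n = 3), GLDP1 887 ± 36.1 and GLDT 860 ± 35.3, and the libraries of these 3 overlapped. GLDP2 followed at 732 ± 42.2 TPM and GDCH1 at 590 ± 87.5, each apart from its neighbours in the order. The remaining genes were far lower, with mLPD1 at 172 ± 11.6, mLPD2 at 40.9 ± 1.47 and GDCH2 at 29.2 ± 3.81 TPM. The order in WT roots began with GDCH2 at 263 ± 39.4 TPM, the gene that came last in the aerial part. It was followed by GLDT at 206 ± 11.8, GLDP2 at 158 ± 9.60, mLPD2 at 101 ± 7.02 and mLPD1 at 82.2 ± 3.75 TPM. GLDP1 at 62.0 ± 2.52 and GDCH3 at 52.1 ± 12.2 TPM overlapped, and GDCH1 closed the order at 10.5 ± 1.76 TPM.

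**Figure D1:**
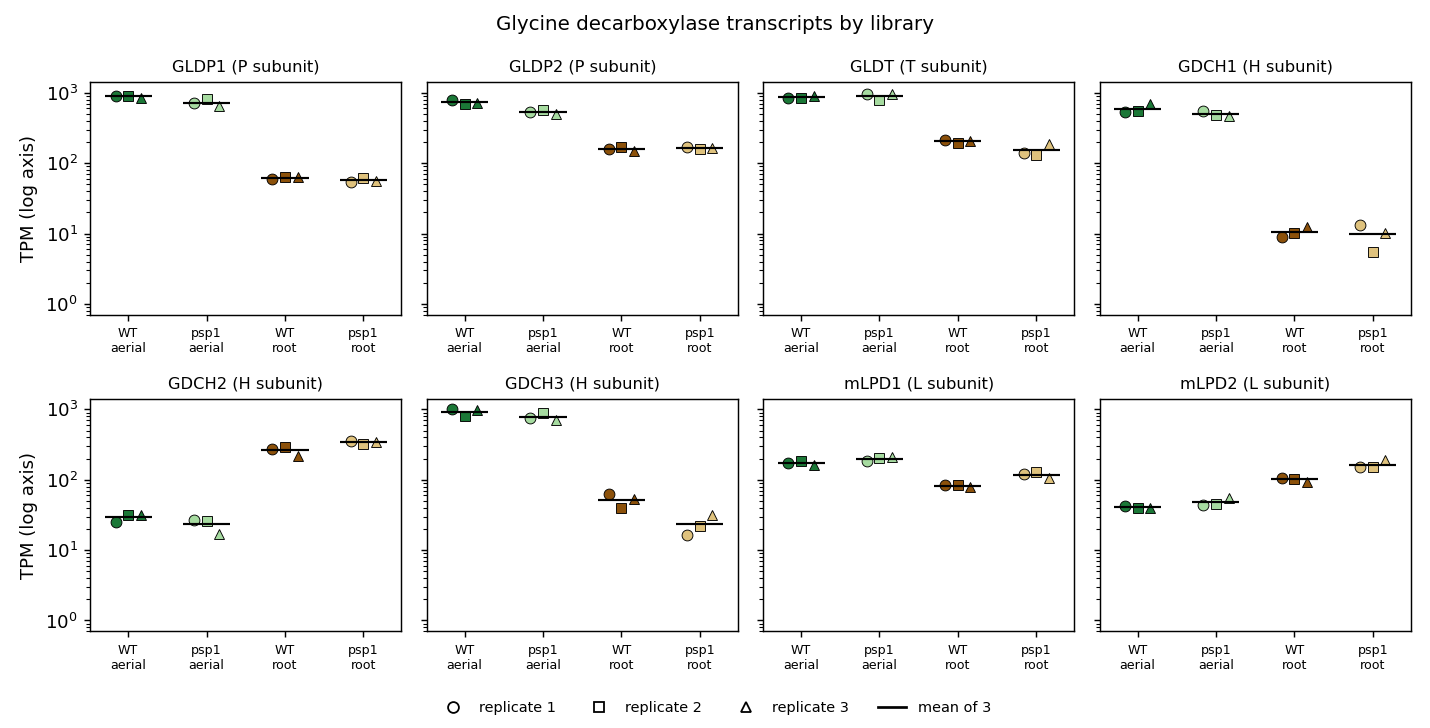
TPM (log axis) of each of the 8 genes in the 12 libraries, grouped by genotype label and organ, with symbols for replicates 1 to 3 and a bar for the mean of 3. GDCH2 and mLPD2 stand higher in roots than in the aerial part in both genotypes, and the other 6 genes stand lower there.

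Roots were first compared with the aerial part. In WT all 8 genes passed the test, 6 lower and 2 higher in roots, where 30.8% of all 18202 genes tested were called lower, 33.6% higher and 64.4% in either direction. The libraries of the organs did not overlap for any of the 8, as for 35.8% of all genes on the lower side, 38.3% on the higher side and 74.1% in all. The median log2 fold change of the 8 was -2.65, against 0.03 over all genes. Against this background a call alone does not set the 8 apart, and the sizes are given gene by gene. In these bulk samples fewer cells of a type and less RNA per cell cannot be told apart.

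Both P-protein genes were lower in roots, GLDP1 by the wider step. GLDP1 (AT4G33010; TAIR10.1 chromosome 4, 15926652 to 15931422, minus strand, 14 coding exons) had 914, 902 and 846 TPM in the WT aerial libraries and 59.2, 64.1 and 62.6 TPM in the WT root libraries. The test, whose scaling differs from that of TPM, put GLDP1 20.4-fold lower in roots (log2 fold change -4.35 ± 0.06 SE). The folds given below are also those of the test and need not equal the ratio of the printed TPM. GLDP2 (AT2G26080; chromosome 2, 11109003 to 11114291, minus strand, 15 coding exons) went from 780, 704 and 711 TPM to 158, 167 and 148 TPM, 6.63-fold lower (-2.73 ± 0.07). No WT library of one organ overlapped the other for either gene. GLDP1 accordingly held 54.8% ± 1.19 (SD, n = 3) of the summed P-protein TPM in the WT aerial part and 28.2% ± 1.29 in WT roots. The exact two-sided permutation test gave p = 0.1 for this share, the smallest p that 3 against 3 libraries allow (0.16 adjusted over the 32 comparisons of shares and ratios).

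The coding sequences of GLDP1 and GLDP2 were 85.6% identical and shared 64 of their 31-base words, 2.08% of the words of GLDP1 and 2.06% of those of GLDP2. A word of 31 bases is the default unit by which the counting program matches reads, so almost all words told the pair apart. The longest run the pair shares, 54 bases from coding position 1057 of GLDP1 and 1075 of GLDP2, is shown as the stretch where the pair is hardest to tell apart; it is shorter than a read of 75 bases:
GLDP1 and GLDP2: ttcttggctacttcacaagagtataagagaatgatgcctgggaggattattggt

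The 250 bases before the annotated start of the quantified transcript of each of the 8 genes were taken from the RefSeq TAIR10.1 sequence. Each was searched on both strands for the G-box, CACGTG, and the I-box core, GATAAG, letters known from promoters of light-regulated plant genes. Only the windows of GLDP1 and GLDP2 held a match, and they are printed for that reason, with capitals marking the matches. The G-box stands 33 bases before the start of GLDP1 (chr4:15931423-15931672, minus strand), and the I-box core 233 bases before the start of GLDP2 (chr2:11114292-11114541, minus strand). The windows before the quantified transcripts of GLDT, the 3 H-protein genes and both L-protein genes held neither set of letters. For GLDT and mLPD1 that window reaches into the annotated gene, whose outermost start lies further upstream. Among 26691 upstream windows of the same length, 6.74% held the G-box letters and 12.4% the I-box core letters. A match is a description of letters and no evidence of binding.
GLDP1 upstream: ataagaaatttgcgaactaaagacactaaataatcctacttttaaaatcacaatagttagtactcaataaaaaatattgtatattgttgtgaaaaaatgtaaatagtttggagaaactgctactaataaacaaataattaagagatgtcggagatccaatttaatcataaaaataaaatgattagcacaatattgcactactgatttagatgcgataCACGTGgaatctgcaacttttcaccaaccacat
GLDP2 upstream: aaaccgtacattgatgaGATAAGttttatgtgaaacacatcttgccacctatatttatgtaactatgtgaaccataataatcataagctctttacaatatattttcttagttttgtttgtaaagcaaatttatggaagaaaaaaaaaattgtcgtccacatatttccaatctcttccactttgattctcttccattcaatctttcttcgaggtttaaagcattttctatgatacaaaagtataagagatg

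The single T-protein gene, GLDT (AT1G11860; chromosome 1, 4001113 to 4003748, plus strand), had 831, 850 and 899 TPM in the WT aerial part and 216, 193 and 208 TPM in WT roots. It was 5.97-fold lower in roots (log2 fold change -2.58 ± 0.06 SE), beside 6.63-fold for GLDP2 and 20.4-fold for GLDP1. GLDT shared no 31-base word with any other coding sequence.

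The H-protein genes exchanged places between the organs. GDCH3 (AT1G32470; chromosome 1, 11739304 to 11740399, minus strand) had 998, 801 and 996 TPM in the WT aerial libraries and 63.3, 39.1 and 53.8 TPM in WT roots, 25.6-fold lower (log2 fold change -4.68 ± 0.23 SE). GDCH1 (AT2G35370; chromosome 2, 14891041 to 14892298, plus strand) had 527, 552 and 690 TPM against 8.82, 10.2 and 12.3 TPM, 79.3-fold lower (-6.31 ± 0.17). Its root values rest on 24, 34 and 43 estimated reads. GDCH2 (AT2G35120; chromosome 2, 14805639 to 14807406, minus strand) went the other way, from 24.8, 31.5 and 31.2 TPM to 274, 295 and 219 TPM, 6.30-fold higher by the test (2.66 ± 0.16), with 74 to 88 estimated reads behind the aerial values. GDCH2 thus held 1.90% ± 0.35 (SD, n = 3) of the summed H-protein TPM in the WT aerial part and 80.5% ± 4.61 in WT roots. GDCH3 held 60.1% ± 3.74 and 16.2% ± 4.19, and GDCH1 38.0% ± 3.48 and 3.28% ± 0.93. No library of one organ overlapped the other for any of these shares (exact permutation p = 0.1 each, 0.16 adjusted).

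**Figure D2:**
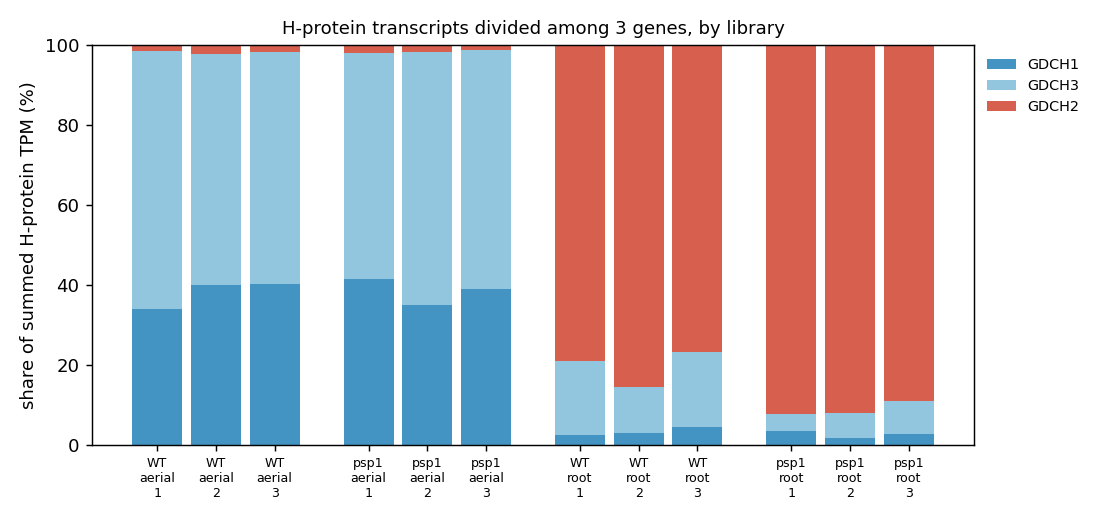
Share of the summed H-protein TPM, in percent, held by GDCH1, GDCH2 and GDCH3 in each of the 12 libraries, 1 stacked bar per library. GDCH2 holds under 2.3% of the bar in each aerial library and between 76.8% and 92.2% in each root library.

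Among the H-protein genes, GDCH2 was also the most different in sequence. GDCH1 and GDCH3 were 88.2% identical over the aligned coding bases, whereas GDCH2 was 68.1% identical to GDCH1 and 70.1% to GDCH3. A stretch of 60 bases near the 3′ end of the 3 coding sequences is shown because it holds the longest run that GDCH1 shares with GDCH3 (34 bases) and the longest that GDCH2 shares with GDCH3 (23 bases). It starts at coding position 429 of GDCH1, 402 of GDCH2 and 432 of GDCH3, and capitals mark the positions at which the 3 are not all alike. GDCH1 differs from GDCH3 at 5 of the 60 positions and GDCH2 at 16.
GDCH1: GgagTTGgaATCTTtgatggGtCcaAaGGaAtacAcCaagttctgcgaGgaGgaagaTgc
GDCH2: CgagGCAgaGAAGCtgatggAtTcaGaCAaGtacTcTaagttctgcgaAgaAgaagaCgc
GDCH3: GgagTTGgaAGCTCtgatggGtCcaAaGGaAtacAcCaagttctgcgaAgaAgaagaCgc
Only 4 words of 31 bases were shared between GDCH1 and GDCH3, 0.85% of the words of either, and GDCH2 shared none with any gene. The annotated gene of GDCH3 overlaps AT1G32460 on the opposite strand and a non-coding RNA on its own strand, and GLDP1 overlaps AT4G33000 on the opposite strand. None of the coding bases of the 8 genes lies in an exon of another gene.

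The L-protein genes moved in opposite directions, and less. mLPD1 (AT1G48030; chromosome 1, 17716893 to 17719500, minus strand) had 171, 184 and 161 TPM in the WT aerial part and 83.3, 85.3 and 78.0 TPM in roots, 2.99-fold lower by the test (log2 fold change -1.58 ± 0.08 SE). mLPD2 (AT3G17240; chromosome 3, 5889663 to 5892332, minus strand) went from 42.6, 40.0 and 40.0 TPM to 107, 104 and 93.3 TPM, 1.73-fold higher (0.79 ± 0.07). mLPD1 held 80.8% ± 1.17 (SD, n = 3) of the L-protein TPM in the aerial part and 44.9% ± 0.89 in roots. The coding sequences of mLPD1 and mLPD2, both of 1524 bases, were 83.6% identical and shared 2 words of 31 bases. The largest adjusted p among the 8 genes in this comparison was 7.64e-11 (edgeR exact test), that of mLPD2. Scaling by library totals in place of TMM moved the median of all genes from 0.03 to 0.54 on the log2 scale. Under it the 8 genes kept their directions and their calls, with mLPD1 at -1.07 and GDCH2 at 3.17.

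The plants labelled psp1 gave the same 8 calls in the same directions, on a background of 24.5% of 17344 genes lower, 25.2% higher and 49.7% called in all. Again no gene of the 8 overlapped between the organs, as for 30.5% of all genes on the lower side, 32.7% on the higher side and 63.2% in all. The log2 fold changes of roots over the aerial part were -4.35 ± 0.12 SE for GLDP1, -2.38 ± 0.08 for GLDP2 and -3.24 ± 0.20 for GLDT. GDCH1 stood at -6.32 ± 0.35, GDCH3 at -5.75 ± 0.29 and GDCH2 at 3.19 ± 0.20, and the L-protein genes at -1.43 ± 0.11 for mLPD1 and 1.10 ± 0.17 for mLPD2. The largest adjusted p was 3.51e-08. Here the library totals moved the median of all genes from 0.04 to 0.60, and the 8 directions and calls were again the same.

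Summed by subunit, the transcripts of the complex were led by P and H in the aerial part and lay closer together in roots. In WT the sums were 1619 ± 69.4 TPM for P, 1550 ± 166 for H, 860 ± 35.3 for T and 213 ± 11.6 for L in the aerial part. In WT roots they were 219.8 ± 10.6 TPM for P, 325 ± 34.9 for H, 206 ± 11.8 for T and 183 ± 10.5 for L. All 8 genes together summed to 4242 ± 159 TPM in the aerial part and 934 ± 51.2 TPM in roots. As log2 ratios to P, the L sum stood at -2.93 ± 0.08 (SD, n = 3) in the WT aerial part and -0.26 ± 0.06 in WT roots. The T sum went from -0.91 ± 0.12 to -0.10 ± 0.15 and the H sum from -0.07 ± 0.18 to 0.56 ± 0.12. Each of the 3 ratios was higher in roots in every WT library (exact permutation p = 0.1 each, 0.16 adjusted). The psp1-labelled plants showed the same for L and H, with L going from -2.34 ± 0.20 to 0.35 ± 0.07 and H from 0.06 ± 0.06 to 0.75 ± 0.09. Their T ratio overlapped between the organs, at -0.47 ± 0.31 in the aerial part and -0.55 ± 0.29 in roots (exact permutation p = 1), and its sign turned when psp1-labelled aerial replicate 3 (0.041) or root replicate 2 (0.038) was left out.

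**Figure D3:**
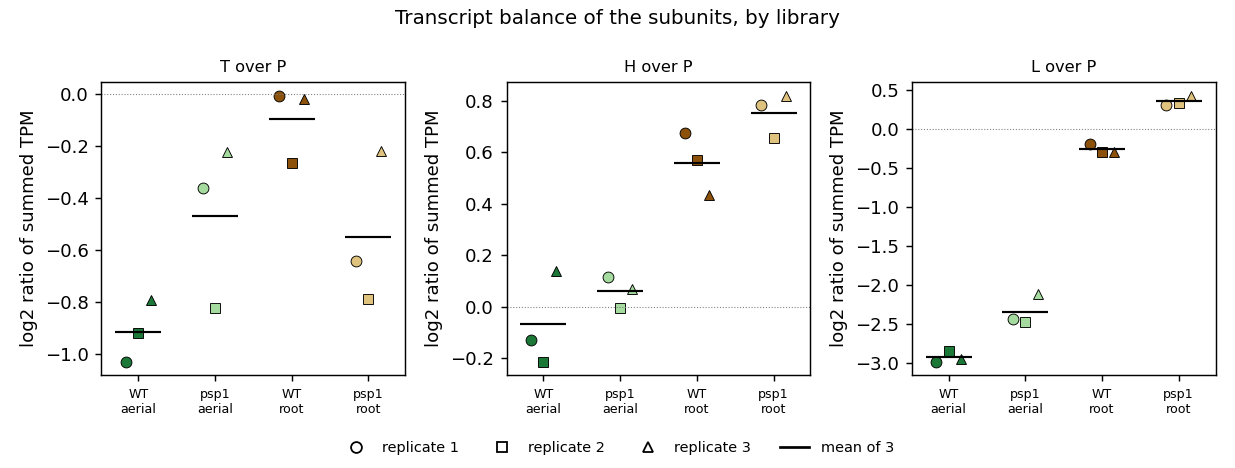
Log2 ratio of the summed TPM of T, H and L genes to the summed TPM of the P genes in each library, with a bar for the mean of 3 and a dotted line at equal sums. The L ratio stands higher in the psp1-labelled libraries than in the WT libraries in both organs, with no overlap.

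The genotypes were then compared within each organ. In the aerial part none of the 8 genes passed the threshold in the edgeR exact test, where 0.904% of 15928 genes were called lower, 1.53% higher and 2.43% in either direction. At an unadjusted p under 0.05 there were 2 of the 8, GLDP1 and GLDP2, and 16.6% of all genes. The median log2 fold change was -0.26, against 0.01 over all genes. DESeq2 called 1 gene, GLDP2, and the quasi-likelihood test of edgeR called none. On simulated data the exact test recovered 64% of 2-fold changes in this comparison, so smaller ones can be missed.

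GLDP2 had the smallest p of the 8 in the aerial part, with 529, 574 and 499 TPM in the psp1-labelled libraries against 780, 704 and 711 TPM in WT. All 3 lay below WT, and the log2 fold change was -0.48 ± 0.09 SE (edgeR exact test, adjusted p = 0.0380). DESeq2 gave an adjusted p of 0.00479, and over all alternatives the adjusted p of GLDP2 ran from 0.00479 to 0.345, the highest without WT aerial replicate 1. GLDP1 had 714, 818 and 640 TPM against 914, 902 and 846 TPM, also without overlap (-0.32 ± 0.12, adjusted p = 0.298). As a share of the P-protein TPM, GLDP1 was at 57.5% ± 1.28 in psp1-labelled and 54.8% ± 1.19 in WT aerial libraries. The groups did not overlap (exact permutation p = 0.1, 0.16 adjusted) but nearly touched. The lowest psp1-labelled library was at 56.21% and the highest WT library at 56.17%.

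The other 6 genes stayed further from the threshold in the aerial part. GLDT had 967, 788 and 976 TPM in psp1-labelled libraries, around its WT values (0.06 ± 0.09, adjusted p = 0.922). The H-protein genes had log2 fold changes of -0.25 ± 0.12 for GDCH1, -0.35 ± 0.22 for GDCH2 and -0.27 ± 0.14 for GDCH3, with adjusted p from 0.404 to 0.639. Their shares of the H-protein TPM overlapped between the genotypes, at 38.5% ± 3.25 for GDCH1, 1.76% ± 0.29 for GDCH2 and 59.8% ± 3.28 for GDCH3 in psp1-labelled plants. mLPD1 had 186, 205 and 207 TPM and mLPD2 43.9, 44.7 and 55.0 TPM, with log2 fold changes of 0.19 ± 0.11 and 0.20 ± 0.12. On normalised log2 CPM the psp1-labelled libraries lay below WT without overlap for GLDP1, GLDP2 and GDCH1. Of all genes 11.3% lay below without overlap and 23% did not overlap in either direction. The TPM of GDCH1 did overlap, at 558, 486 and 464 in psp1-labelled and 527, 552 and 690 in WT aerial libraries. The separation of GDCH1 therefore depends on the scaling. Leaf markers stood beside these values, where 0.904% of all genes were called lower and 1.53% higher. Of the 10 markers 2, LHCB3 (-0.54 ± 0.06) and PSBS (-0.76 ± 0.20), were called lower and none higher. Their summed level was 39781 to 50605 TPM in psp1-labelled and 48681 to 58197 TPM in WT aerial libraries. The part of leaf markers and of depth in the P-protein values was not tested.

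In roots 3 of the 8 genes passed the threshold, GDCH3 and GLDT lower and mLPD2 higher in psp1-labelled plants. Of all 17793 genes tested there, 9.1% were called lower, 8.72% higher and 17.8% in either direction. The median of the 8 was -0.22, against 0.01 over all genes.

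GDCH3, a minor H-protein transcript of roots, had the largest log2 difference of the 8. Its level was 63.3, 39.1 and 53.8 TPM in WT roots and 16.2, 22.3 and 32.0 TPM in psp1-labelled roots, and every psp1-labelled library lay below every WT library. The log2 fold change was -1.37 ± 0.35 SE, 2.58-fold lower (edgeR exact test, adjusted p = 8.49e-05). These values rest on 131 to 190 estimated reads in WT and 33 to 47 in psp1-labelled roots. The call held under each of the 13 alternatives run, with log2 fold changes from -1.67 to -1.16 and adjusted p from 3.29e-07 to 0.00557. GDCH1, its closest relative, had 13.4, 5.47 and 10.3 TPM in psp1-labelled roots against 8.82, 10.2 and 12.3 TPM in WT. With 9 to 43 estimated reads a library, no difference was detectable at this depth (-0.29 ± 0.39, adjusted p = 0.707), and its direction turned without psp1-labelled root replicate 2 (0.010).

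GDCH2, the main H-protein gene of roots, had 351, 323 and 344 TPM in psp1-labelled and 274, 295 and 219 TPM in WT roots. These TPM did not overlap, but the normalised log2 CPM did, and the test gave 0.17 ± 0.14 (adjusted p = 0.461). TPM follows library totals, and scaling by totals raised the median of all genes in this comparison from 0.01 to 0.12. In shares of the H-protein TPM the scaling of a whole library cancels, while that by target length remains. GDCH2 held 91.1% ± 1.79 in psp1-labelled roots against 80.5% ± 4.61 in WT, and GDCH3 6.30% ± 2.01 against 16.2% ± 4.19. Neither share overlapped between the genotypes (exact permutation p = 0.1 each, 0.16 adjusted).

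GLDT had 142, 129 and 188 TPM in psp1-labelled roots and 216, 193 and 208 TPM in WT roots. The groups did not overlap, with psp1-labelled replicate 3 close to the lowest WT library. The log2 fold change was -0.63 ± 0.20 SE, 1.55-fold lower (adjusted p = 0.00128). The call was lost when 1 of 4 libraries was left out: adjusted p was 0.0160 without WT replicate 1, 0.0115 without WT replicate 3, 0.0223 without psp1-labelled replicate 1 and 0.0205 without psp1-labelled replicate 2.

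mLPD2 had 151, 150 and 189 TPM in psp1-labelled roots against 107, 104 and 93.3 TPM in WT roots. All 3 lay above WT, and the log2 fold change was 0.49 ± 0.14 SE, 1.40-fold higher (adjusted p = 0.00651). This call stood near the threshold. It was lost under 9 of 13 alternatives, among them at an adjusted p of 0.0148 with the quasi-likelihood test, 0.0102 without the filter on low counts, 0.0130 at equal depth, and 0.0164 to 0.0637 when any library other than psp1-labelled replicate 2 was left out. mLPD1 was also above WT in each psp1-labelled library, with 121, 128 and 104 TPM against 83.3, 85.3 and 78.0 TPM, but did not pass (0.31 ± 0.07, adjusted p = 0.0631). With library totals it did, at 0.43 and an adjusted p of 0.00890. The mLPD1 share of L was 42.1% ± 5.73 in psp1-labelled roots and 44.9% ± 0.89 in WT roots, with overlap, and its direction turned without psp1-labelled replicate 3.

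The P-protein genes did not pass in roots. GLDP1 had 53.3, 61.1 and 55.9 TPM in psp1-labelled and 59.2, 64.1 and 62.6 TPM in WT roots (-0.34 ± 0.05, adjusted p = 0.0342). The values of GLDP2 were 168, 161 and 163 TPM against 158, 167 and 148 TPM, with a log2 fold change of -0.15 ± 0.06 (adjusted p = 0.43) that shrank to -0.040 with library totals. The TPM means of GLDP2 had the other order, 164 ± 3.37 in psp1-labelled and 158 ± 9.60 in WT roots. Its direction depends on the scaling, and none is claimed for it. On normalised log2 CPM 6 of the 8 genes did not overlap between the genotypes, 4 lower (GLDP1, GLDP2, GLDT, GDCH3) and 2 higher (mLPD1, mLPD2). Of all genes 19.7% were lower without overlap, 20.1% higher and 39.8% either. The TPM of GLDP1 and of GLDP2 did overlap, so their separation, and for GLDP2 the direction counted here, depends on the scaling.

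Leaf and root markers in roots are given beside these values, where 9.1% of all genes were called lower and 8.72% higher. Of the 10 leaf markers, 3 fell in psp1-labelled roots and none rose: LHCB3, a light-harvesting protein of photosystem II (-1.51 ± 0.14), LHCA1 of photosystem I (-1.47 ± 0.12) and LHCB1.3 (-0.69 ± 0.23). The other 7 were not called, and 2 of them had a log2 fold change above 0, BCA1 (0.78 ± 0.64) and RBCS3B (0.36 ± 0.57). The 10 together summed to 860, 888 and 842 TPM in WT root libraries 1 to 3. In the psp1-labelled ones they summed to 538, 517 and 789 TPM, and no leaf marker was at 0 in any root library. Psp1-labelled replicate 3, the highest of its group in this sum, was also the highest for GLDT and GDCH3. The other genes that were lower in roots than in the aerial part had another order. GDCH1 and GLDP2 were highest in psp1-labelled replicate 1 (13.4 and 168 TPM), and GLDP1 and mLPD1 in replicate 2 (61.1 and 128 TPM). Of the 10 root markers 3 rose, PRP3 (from 0.59 CPM in WT roots), NRT2.1 and PHT1;1, and 1, PYK10, fell. The part of these markers in the values of GDCH3 and GLDT was not tested, and depth and genotype cannot be told apart in the libraries as sequenced. With every library thinned to the smallest total, the edgeR exact test called GDCH3 (adjusted p = 0.00135) and GLDT (adjusted p = 0.00112) but not mLPD2. Thinning evens the totals only, and the part of depth in these calls was not tested.

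**Figure D4:**
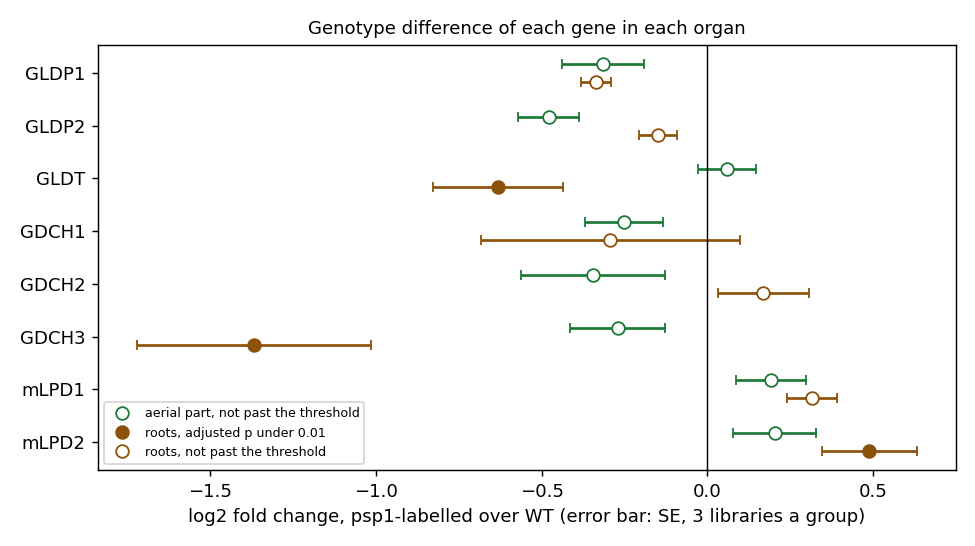
Log2 fold change of psp1-labelled over WT libraries for each gene in the aerial part (green) and roots (brown), with bars for the SE of 3 libraries a group, filled where the adjusted p was under 0.01. GDCH3 and GLDT are filled on the lower side and mLPD2 on the higher side, all in roots, and no aerial point is filled.

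Whether the psp1-labelled difference itself differed between the organs was tested as an interaction over all 12 libraries (edgeR quasi-likelihood test), where 0.864% of 18759 genes were called lower, 0.816% higher and 1.68% in all. None of the 8 genes passed, and 4 had an unadjusted p under 0.05, as had 19.7% of all genes. GDCH3 came closest, with its root difference lower than its aerial difference by a log2 value of -1.01 ± 0.38 SE (adjusted p = 0.0531). It passed with DESeq2 (adjusted p = 0.00995) and without psp1-labelled root replicate 3 (0.00829), and over the alternatives its adjusted p reached 0.136. GLDT followed at -0.59 ± 0.22 (adjusted p = 0.105) and passed without psp1-labelled root replicate 3 (0.00647). GLDP2 stood at 0.43 ± 0.11 (adjusted p = 0.145) and GDCH2 at 0.60 ± 0.27 (adjusted p = 0.215). The calls in roots are therefore not shown to be particular to roots. On simulated data this fit recovered 13% of 2-fold changes, so a missing call does not show that the organs were alike.

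The balance of the subunits was compared between the genotypes as ratios to P. The log2 ratio of L to P was -2.44, -2.48 and -2.12 in the psp1-labelled aerial libraries against -2.99, -2.84 and -2.96 in WT, a mean difference of 0.58. In roots it was 0.30, 0.32 and 0.42 against -0.19, -0.29 and -0.30, a mean difference of 0.61. Neither organ showed overlap (exact permutation p = 0.1 each, 0.16 adjusted). The P sum of the aerial part was 1258 ± 127 TPM in psp1-labelled and 1619 ± 69.4 TPM in WT libraries, and the L sum 247 ± 16.5 and 213 ± 11.6 TPM. In roots the P sums were 221 ± 1.76 and 219.8 ± 10.6 TPM and the L sums 281 ± 10.98 and 183 ± 10.5 TPM. The log2 ratio of T to P differed by 0.44 in the aerial part and by -0.45 in roots and that of H to P by 0.13 and 0.19, psp1-labelled minus WT. These ratios overlapped between the genotypes, with exact permutation p from 0.2 to 0.4, and whether the L ratio differed more than the T ratio was not tested. The sum of all 8 genes was 3725 ± 134 TPM in psp1-labelled against 4242 ± 159 TPM in WT aerial libraries, and 1028 ± 54.3 against 934 ± 51.2 TPM in roots.

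Partners of the complex in the photorespiratory cycle were described from a list of 21 genes. In the aerial part the edgeR exact test called none of the 21 in either direction, 7 had an unadjusted p under 0.05, where 2.43% of all genes were called and 16.6% had such a p, and their median log2 fold change was -0.12. The members with the smallest p were BOU, a mitochondrial carrier (-0.46 ± 0.09, adjusted p = 0.0647), and the phosphoglycolate phosphatase copies PGLP1A and PGLP1B, whose counts were identical (0.62 ± 0.29, adjusted p = 0.0768) and cannot be assigned to either copy. Both copies are among the 7, so 1 measurement enters as 2 genes, here and in the organ counts of this list below. In roots 20 were tested, 3 fell and 2 rose, where 9.1% of all genes were called lower and 8.72% higher. GLYK, glycerate kinase, the last step of the cycle, fell from 138 ± 8.39 to 69.2 ± 2.16 CPM (-1.11 ± 0.05, adjusted p = 2.12e-14). SHM1, the serine hydroxymethyltransferase that takes the one-carbon unit released by glycine decarboxylase, fell from 83.5 ± 8.26 to 49.5 ± 9.48 CPM (-0.86 ± 0.20, adjusted p = 1.76e-05). GS2, the plastidial glutamine synthetase that refixes ammonia, rose from 74.0 ± 5.18 to 123 ± 17.7 CPM (0.63 ± 0.15, adjusted p = 0.000476). The other two calls, named after their values were seen, were the aminotransferase AGT1 (-0.54 ± 0.06) and the second mitochondrial serine hydroxymethyltransferase, SHM2 (0.57 ± 0.12).

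Between the organs most of this list was lower in roots. In WT 18 of 21 were lower in roots and 3 higher, with a median of -4.79, against -2.65 for the 8 genes of the complex. Of all genes 30.8% were called lower there and 33.6% higher. GOX1, glycolate oxidase, was 453-fold lower (-8.82 ± 0.31), GLU1, ferredoxin-dependent glutamate synthase, 195-fold lower (-7.61 ± 0.13) and GGAT1, glutamate:glyoxylate aminotransferase, 96.8-fold lower (-6.60 ± 0.09). In psp1-labelled plants 16 were lower and 1 higher, against 24.5% and 25.2% of all genes. Among them GOX1 stood at -8.22 ± 0.34, GGAT1 at -6.32 ± 0.16 and AGT1 at -5.22 ± 0.14.

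The dehydrogenases that share the L-protein were taken as a list of 15 subunit genes. In WT roots 6 were higher than in the aerial part and 3 lower, and in psp1-labelled plants 4 and 4. Of all genes 64.4% were called in WT and 49.7% in psp1-labelled plants, so these counts do not set the list apart. PDH_E2_2, an acetyltransferase of pyruvate dehydrogenase, was higher in WT roots (1.16 ± 0.10, adjusted p = 2.88e-19), as mLPD2 was. BCKDH_E1alpha1 (-4.11 ± 0.17) and DIN4 (-1.91 ± 0.20), subunits of the branched-chain dehydrogenase, were lower there. Between the genotypes in roots 2 rose and 2 fell of 15, where 17.8% of all genes were called. IAR4, an alpha subunit of pyruvate dehydrogenase E1, rose beside mLPD2 (0.45 ± 0.11, adjusted p = 0.00768). So did PDH_E1beta (0.42 ± 0.07, adjusted p = 0.00884), which was named after its value was seen. BCE2 (-1.52 ± 0.15, adjusted p = 8.36e-21) and BCKDH_E1beta1 (-0.91 ± 0.24, adjusted p = 0.00318), of the branched-chain dehydrogenase, fell. In the aerial part, where 2.43% of all genes were called, 1 of 14 was, BCKDH_E1alpha1 (0.59 ± 0.11, adjusted p = 0.00700).

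The H-protein works only with lipoate attached, and 7 genes of mitochondrial lipoate synthesis and attachment were described beside it. The edgeR exact test called none between the genotypes in either organ, with 1 of 7 at an unadjusted p under 0.05 in the aerial part and 3 of 7 in roots, against 16.6% and 35.8% of all genes. The smallest p in the aerial part was that of LIP2, with 59.7 ± 36.9 CPM in psp1-labelled and 28.3 ± 8.82 CPM in WT libraries (adjusted p = 0.0898). In roots it was that of mtACP2, an acyl carrier protein (-0.46 ± 0.16, adjusted p = 0.0283). In WT 4 were lower in roots and 1 higher, where 64.4% of all genes were called. LIP1, lipoyl synthase, was 5.57-fold lower (-2.48 ± 0.19), LIP2, an octanoyltransferase, 6.64-fold lower (-2.73 ± 0.34) and mtPPT, a phosphopantetheinyl transferase, 2.41-fold lower (-1.27 ± 0.07). LIP1 and LIP2 were lower in psp1-labelled roots as well (-2.56 ± 0.23 and -4.66 ± 0.54).

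Profiles over the 12 libraries were compared by the root mean square difference of log2 CPM after each of 18759 genes was centred on its own mean. A smaller value means a more similar profile, and points share libraries, so the values are a description only. The nearest gene to GDCH3 was LHCB3, at 0.22, and the third was SHM1, at 0.30. LHCB2.1, another light-harvesting protein, was nearest to GDCH1 (0.27). The nearest gene to mLPD2 was IAR4, at 0.10, and to mLPD1 GCH, an enzyme of riboflavin synthesis, at 0.11. GLDP1 was followed most closely by AT3G59780, COL4, a CONSTANS-like protein, and AT5G35970, all at 0.16. For GLDP2 the order was ATBETAFRUCT4, a vacuolar invertase (0.14), ACS10 (0.16) and GR, a glutathione reductase (0.17). AT2G32500 was nearest to GLDT (0.14) and AT4G08160 to GDCH2 (0.21). Within the complex, GLDT and GLDP2 lay closest (0.37), followed by GLDP2 and mLPD1 (0.61), GLDP1 and GDCH3 (0.61) and GDCH1 and GDCH3 (0.75). Many genes outside the complex lay closer. Among 18758 other genes GLDP2 ranked 185 in nearness to GLDT, and GLDT ranked 292 to GLDP2. The best rank within the complex was 176, that of GLDP1 in nearness to GDCH3. The paralogues of the P-protein lay 0.91 apart, those of the L-protein 1.23, and GDCH2 lay 4.59 from GDCH1 and 4.10 from GDCH3.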

How the data were processed

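RNA of 12 libraries (WT and psp1, aerial part and roots, 3 each) was enriched for polyadenylated RNA and read as single 75-base reads on a SOLiD instrument, per the labels' protocols. Reads were assigned to the TAIR10 transcriptome with kallisto 0.43.0, at a fragment length of 200 and an SD of 30, and tested in R 3.3.2 with edgeR in classic mode at a 0.01 level, per the labels' protocols. The deposited estimated counts need not be whole, because a read that matches several targets is divided among them; by a tolerance of 0.001, 3.62% to 6.18% of the values of a library were fractional. They were rounded. The deposited TPM values are scaled by target length and library sum; 99.99% of target lengths were multiples of 3, so lengths are coding lengths and untranslated regions added no reads. The strand rule of the counting is not given in the sources used here.

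Each comparison of 3 against 3 libraries used edgeR 4.0.16 in R 4.3.3: TMM factors, dispersion without a design, exact test, default filter on low counts, Benjamini-Hochberg over all genes tested, and a call at an adjusted p under 0.01. SE comes from the spread of log2 CPM with a prior count of 2. Printed CPM and TPM follow library totals and printed fold changes follow TMM, so a fold need not equal the ratio of the printed levels. The interaction used the quasi-likelihood test over 12 libraries. Shares of a subunit's TPM and log2 ratios of sums were compared by exact two-sided permutation tests, adjusted over 32 comparisons. Alternatives were DESeq2 1.42.0, the quasi-likelihood test, library totals, no filter, equal depth, a 0.05 threshold, a replicate block, leaving out each library, and shares of unscaled counts. The fits were tested on simulated data with known changes. For the genotypes they recovered 64% of 2-fold changes in the aerial part and 71% in roots. Between the organs they recovered 91% in WT and 39% in psp1-labelled plants. The interaction fit recovered 13% of 2-fold and 76% of 4-fold changes.

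Sequences and coordinates are RefSeq TAIR10.1, while the labels name TAIR10; all 8 loci matched, with equal coding lengths, and 96.6% of 26691 coding targets did. Alignments used Biopython 1.88. The 8 loci were named in every comparison; of each partner list up to 3 tested members with the smallest p of a comparison were named, and for each locus the nearest profiles. The members and lists were chosen with earlier results of these data known.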

Additional observations from a re-analysis of the deposited data

How the results depend on the processing

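Over the 13 alternatives of each organ comparison, all 8 genes kept their calls and directions in both genotypes. In the aerial part 0 of the 8 genes were called between the genotypes, 1 with DESeq2 and 1 at an adjusted p under 0.05. The 3 calls in roots became 1 to 2 when 1 library was left out and 2 to 4 under the other settings; leaving out a library also lowers the number of samples. The interaction called none of the 8, 1 with DESeq2 and 0 to 2 when 1 library was left out. In the aerial part, leaving out 1 library moved the psp1 minus WT difference of the share of GDCH1 from -1.56 to 2.17 percentage points, of GDCH2 from -0.29 to 0.046, of GDCH3 from -1.97 to 1.86 and of mLPD1 from -0.81 to 0.73. The mLPD1 share in roots moved from -4.76 to 0.52 and the psp1-labelled organ difference of log2 T to P from -0.26 to 0.041. Among single genes, GLDT in the aerial part ran from -0.0093 to 0.13, GDCH1 in roots from -0.63 to 0.010, the interaction of GLDP1 from -0.070 to 0.19 and that of GDCH1 from -0.42 to 0.25 (-0.019 with DESeq2). The causes were not tested. The correlations showed no pairing of the libraries of the 2 genotypes by replicate number. They cannot show whether same-numbered plants were grown or processed together. Same-numbered libraries of WT and psp1 correlated at -0.05 to 0.02 in the aerial part and -0.05 to 0.05 in roots. In WT each root library correlated best with the aerial library of its number (0.03 to 0.15), a weak hint of pairing from the data and not from the design. For WT root library 1 the values were 0.027 with aerial library 1 and 0.023 with aerial library 2. Same-numbered organs of psp1-labelled plants correlated at 0.02 to 0.04. There, root library 2 correlated better with aerial library 1 (0.043) than with aerial library 2 (0.021). With a replicate block, 0 genes were called in the aerial part, 2 in roots (mLPD2 was lost, at an adjusted p of 0.0292), 8 in each organ comparison and 0 in the interaction. Low counts limit GDCH1 in roots and GDCH2 in the aerial part.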
